A study of Mus musculus with 6 samples.

Results

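Matrix metalloproteinases were followed by RNA sequencing in mouse fibroblasts kept on substrates of different stiffness. The 10 genes are Mmp2, Mmp3, Mmp9, Mmp10, Mmp11, Mmp12, Mmp13, Mmp14, Mmp19 and Mmp23, found by their Ensembl identifiers, 10 of the 57010 gene identifiers in the table. Of these, 4 (Mmp3, Mmp10, Mmp12 and Mmp13) lie within 1 cluster of metalloproteinase genes on chromosome 9, with Mmp1a and Mmp1b between them, and are set here against the other 6, which lie on other chromosomes. The cells were ear fibroblasts of Mus musculus, described in the series as dermal. They spent 3 days on glass, the control, or on a polyacrylamide gel of 1 kPa or 20 kPa, with 500000 cells per sample and 2 libraries of polyadenylated RNA per substrate. Polyacrylamide gels are inert, their stiffness is set by crosslinking, and glass is far stiffer than both. Gels and glass also differ in material, so stiffness and material cannot be told apart where a gel is compared with glass. The question was how stiffness acts on cells later meant for conversion into neurons, but no reprogramming factor is named in the labels of any of the 3 groups. The labels give no strain, age, sex or passage of the donor animals and leave unsaid whether both libraries of a substrate were separate cultures or mice. The p-values therefore measure only how far these libraries scatter, and that scatter may be technical. In bulk RNA, more cells of a type and more RNA per cell cannot be told apart.

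Matrix metalloproteinases are zinc-dependent endopeptidases that cut proteins of the extracellular matrix and many proteins of the cell surface. Most are secreted as inactive proenzymes, held shut by a cysteine of the propeptide that binds the catalytic zinc, and are opened by other proteinases. The tissue inhibitors of metalloproteinases (TIMPs) block the active enzymes. In skin, fibroblasts are a main source of the stromelysins and the interstitial collagenases during wound repair and inflammation. Several of these genes sit in 1 cluster in mammals and share a short AP-1 element close to the start of transcription, the site bound by Fos and Jun proteins.

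The 250 bases before the RefSeq start site (GRCm38.p6, the mm10 assembly) are printed for the 4 cluster genes, because these are the genes whose RNA differed most between substrates, and for Mmp8, a neighbour in the same locus with a smaller change, as a contrast. Capitals mark matches to the AP-1 element TGANTCA and to the TATA box TATAAA, searched on both strands. The windows lie on the plus strand at chr9:7445572-7445821 for Mmp3, chr9:7502092-7502341 for Mmp10, chr9:7347124-7347373 for Mmp12, chr9:7272264-7272513 for Mmp13 and chr9:7558179-7558428 for Mmp8. The Mmp12 window belongs to a RefSeq start inside an intron of longer annotated transcripts.
Mmp3: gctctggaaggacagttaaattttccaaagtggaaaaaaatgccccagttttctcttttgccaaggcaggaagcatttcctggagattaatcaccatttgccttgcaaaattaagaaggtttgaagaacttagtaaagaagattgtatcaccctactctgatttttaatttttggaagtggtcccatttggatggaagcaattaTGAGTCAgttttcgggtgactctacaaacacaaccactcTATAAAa
Mmp10: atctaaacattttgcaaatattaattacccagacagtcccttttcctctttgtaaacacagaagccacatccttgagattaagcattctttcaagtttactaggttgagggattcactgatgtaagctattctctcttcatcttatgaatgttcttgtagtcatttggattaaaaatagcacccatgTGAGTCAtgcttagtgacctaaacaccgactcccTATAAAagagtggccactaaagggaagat
Mmp12: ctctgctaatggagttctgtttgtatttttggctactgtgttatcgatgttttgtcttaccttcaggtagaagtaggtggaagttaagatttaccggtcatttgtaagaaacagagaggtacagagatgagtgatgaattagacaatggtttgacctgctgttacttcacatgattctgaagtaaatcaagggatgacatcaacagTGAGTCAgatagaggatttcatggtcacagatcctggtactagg
Mmp13: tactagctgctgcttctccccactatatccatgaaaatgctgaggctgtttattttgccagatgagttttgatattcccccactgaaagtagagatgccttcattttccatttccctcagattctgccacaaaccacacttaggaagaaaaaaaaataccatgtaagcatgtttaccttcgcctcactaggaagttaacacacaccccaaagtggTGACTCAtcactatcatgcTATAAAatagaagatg
Mmp8: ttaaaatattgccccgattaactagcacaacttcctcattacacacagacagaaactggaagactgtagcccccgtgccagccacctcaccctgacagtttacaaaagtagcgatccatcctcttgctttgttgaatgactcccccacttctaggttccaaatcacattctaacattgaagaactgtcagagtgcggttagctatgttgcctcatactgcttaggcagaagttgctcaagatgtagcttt

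Mmp3, Mmp10 and Mmp13 each had 1 AP-1 match close to the start, as did the printed window of Mmp12. The other of the 2 RefSeq windows of Mmp12 held no match to AP-1 or the TATA box. Counted back from the base before the start, the match TGAGTCA spanned bases 46 to 40 in Mmp3, 63 to 57 in Mmp10 and 44 to 38 in Mmp12, and TGACTCA spanned bases 35 to 29 in Mmp13. A TATA match followed it in Mmp3, Mmp10 and Mmp13, and none was found in the printed Mmp12 window. Mmp8, Mmp11, Mmp14 and Mmp23 held neither motif in this window. Among all 32851 RefSeq windows of this length, 6.75% held an AP-1 match and 12.4% a TATA match. A window was present for 7 of the 10 genes. None was present for Mmp2, Mmp9 and Mmp19, so their starts were not searched. Matches are letters in a window and say nothing of binding in these cells.

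In all libraries together, depth ran from 17669006 to 21350111 counts, at which 3 counts correspond to 0.139 to 0.174 CPM (counts scaled to a common library size with TMM factors). Of 16093 genes tested, 8247 (51.2%) differed over the 3 substrates in the edgeR quasi-likelihood test at a Benjamini-Hochberg adjusted p below 0.05. All 9 fibroblast markers were among the tested genes, with a summed level of 17710 to 21580 CPM per library, most of it Col1a1, Col1a2 and Vim. The sum does not give the share of fibroblasts. Against glass 7 were higher and 2 lower on 1 kPa (23.0% and 22.0% of all tested genes). On 20 kPa 6 were higher and 2 lower (22.3% and 19.6%). Lum went from 45.8 CPM on glass to 938 on 1 kPa and 884 on 20 kPa, while Vim changed by -0.94 and -0.62 on the log2 scale. Libraries of a group correlated at 0.992 to 0.993 on the log2 scale across genes, which are not independent replicates. The counts of the 2 libraries differed most on glass. The chi-square per degree of freedom was 37.8 on glass, 9.8 on 1 kPa and 3.46 on 20 kPa.

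All 10 metalloproteinase genes were higher on both gels than on glass, and on the log2 scale the 4 cluster genes rose by far more than most of the others. In CPM this did not hold for all 4. On 1 kPa Mmp3 reached 6408 CPM and Mmp13 240, but Mmp12 only 7.07 and Mmp10 only 2.82. Mmp2, outside the cluster, went from 415 CPM on glass to 1291 on 1 kPa. On 1 kPa, 10 of 10 passed the edgeR test as higher. Of all tested genes 45.0% passed, 23.0% as higher and 22.0% as lower. On 20 kPa, 10 of 10 passed as higher, and of all tested genes 41.8% passed, 22.3% as higher and 19.6% as lower. Both libraries of the gel lay above both glass libraries for 10 of 10 on either gel, as they did for 36.2% of all tested genes on 1 kPa and 35.5% on 20 kPa. The median log2 fold change of the 4 cluster genes was 7.78 on 1 kPa and 5.65 on 20 kPa. That of the other 6 was 1.53 and 1.25, and that of all tested genes was 0 and 0.02. The 2 comparisons share the glass libraries. Mmp10 and Mmp12 had at most 1 count in a glass library, and with glass set at the level of 3 counts the cluster medians were 7.15 and 5.02. Mmp9, Mmp10, Mmp12 and Mmp13 passed the filter on low counts through their levels on the gels.

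**Figure D1:**
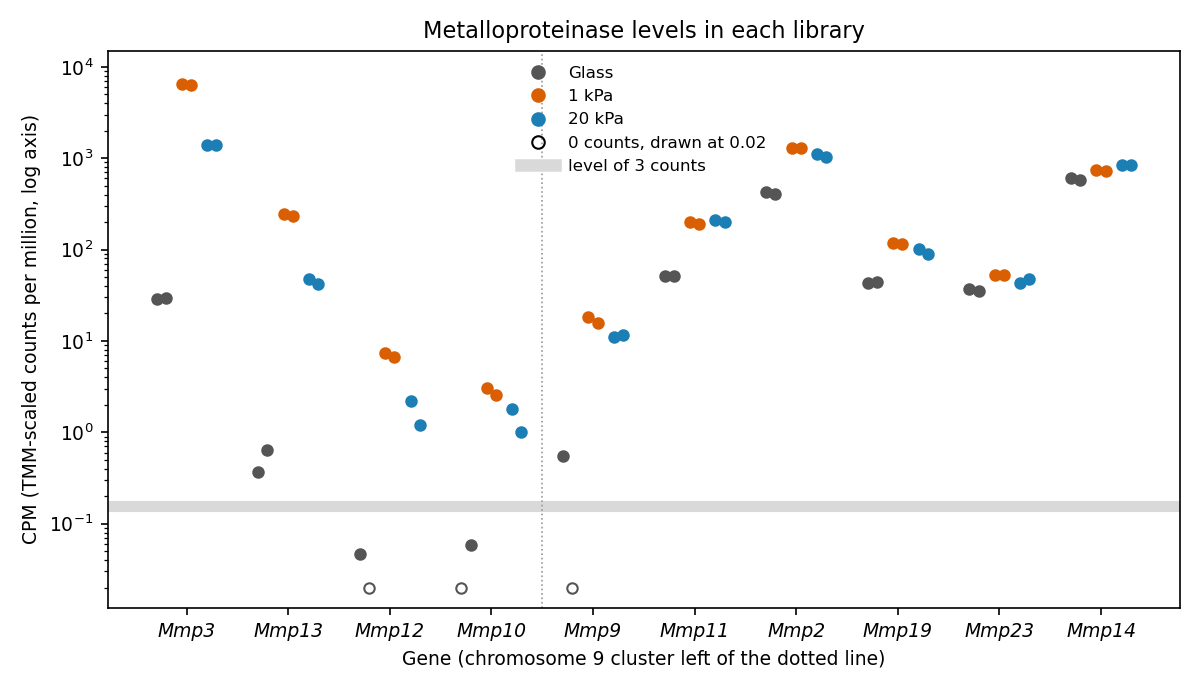
CPM of each gene in each of the 6 libraries on a log axis, with the cluster genes left of the dotted line and open circles for 0 counts. For every gene both libraries of each gel lay above both glass libraries. Mmp3 ran from 28.9 CPM in a glass library to 6456 in one of 1 kPa, while Mmp14 moved within 578 to 845 CPM.

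Mmp3 encodes stromelysin 1, a broad-spectrum enzyme that cuts proteoglycans, fibronectin and laminin and activates other proenzymes. Its gene lies on the plus strand of chromosome 9, 7445822 to 7455975 (ENSMUSG00000043613.9). The glass libraries held 625 and 506 counts of it, the 1 kPa libraries 132474 and 113480, and the 20 kPa libraries 28425 and 28563. The 3 substrates did not overlap, with 1 kPa highest, and the libraries of each substrate lay close together. In CPM it rose from 29.1 ± 0.321 on glass (mean ± SD, n = 2 here and below) to 6408 ± 67.7 on 1 kPa, higher by 7.78 on the log2 scale (SE 0.08, edgeR adjusted p = 5.8e-33). On 20 kPa it stood at 1384 ± 1.42 CPM, higher than on glass by 5.57 (SE 0.08, edgeR adjusted p = 1.2e-29). Among 52081 genes ranked by RPKM (CPM per kilobase of annotated exons), Mmp3 ranked 3023 and 2970 in the glass libraries. It ranked 3 and 2 in the 1 kPa libraries and 23 in both 20 kPa libraries. It took 0.629% and 0.634% of all counts of the 1 kPa libraries, against 0.00293% and 0.00286% on glass and 0.14% and 0.141% on 20 kPa.

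Mmp10 encodes stromelysin 2, a close relative of Mmp3, and lies downstream of it with Mmp1a between them (ENSMUSG00000047562.4, chromosome 9, 7502352 to 7510240, plus strand). Glass libraries held 0 and 1 counts, 1 kPa libraries 63 and 46, and 20 kPa libraries 37 and 21. Both gels lay above glass in every library, at levels far below those of Mmp3. The ratio of 1 kPa to glass was 110 with an exact 95% counting interval of 19.4 to 4400, and that of 20 kPa to glass was 54.8 (9.45 to 2200). The fitted log2 fold changes were 6.47 (SE 0.69, edgeR adjusted p = 4.1e-09) and 5.46 (SE 0.79, edgeR adjusted p = 1.2e-06). The sequences of Mmp10 and Mmp3 share 206 exonic stretches of 30 bases, 12.2% of those of Mmp10, so reads of the abundant Mmp3 could be counted for Mmp10. Mmp10 had 0.884 counts per 1000 counts of Mmp3 on glass, 0.443 on 1 kPa and 1.02 on 20 kPa, and what part of its counts came from Mmp3 was not tested.

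Mmp13 encodes collagenase 3, which cleaves fibrillar collagens and is the main interstitial collagenase of rodent tissue (ENSMUSG00000050578.11, chromosome 9, 7272514 to 7283331, plus strand). It had 8 and 11 counts in the glass libraries, 5085 and 4142 in those of 1 kPa, and 979 and 861 in those of 20 kPa. Glass was near the lower limit of detection and the 3 substrates did not overlap. It averaged 0.504 ± 0.19 CPM on glass, 240.0 ± 11.1 on 1 kPa and 44.7 ± 4.25 on 20 kPa. Its log2 fold change was 8.92 on 1 kPa (SE 0.14, edgeR adjusted p = 4e-29) and 6.5 on 20 kPa (SE 0.16, edgeR adjusted p = 1.2e-23). The counting intervals of the ratios were wider than these SEs, 492 (315 to 818) for 1 kPa and 91.4 (58.4 to 152) for 20 kPa.

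Mmp12 encodes the macrophage elastase, named for the cell in which it was found (ENSMUSG00000049723.15, chromosome 9, 7344381 to 7369499, plus strand). Counts were 1 and 0 in the glass libraries, 152 and 120 in those of 1 kPa, and 45 and 25 in those of 20 kPa. The substrates did not overlap, and both gels were low in level. The ratio of 1 kPa to glass was 276 (49 to 10900) and that of 20 kPa to glass was 66.1 (11.5 to 2650), with fitted log2 fold changes of 7.79 (SE 0.53, edgeR adjusted p = 2.3e-13) and 5.74 (SE 0.72, edgeR adjusted p = 1e-07). Another gene, Mmp1b, overlaps 2.17% of its exons on the other strand, and whether the counting used strand is not given in the sources used here. Among 12 macrophage markers 5 passed the filter, and their 12 summed levels came to 11.1 to 13.5 CPM on glass, 14.1 to 16.5 on 1 kPa and 13.1 to 14.2 on 20 kPa. Itgam and Fcgr1 had 0 or 1 counts in a library, Ptprc 2 to 5 and Adgre1 3 to 14. Csf1r had 39 to 80 counts and Cd68 64 to 93, neither of them higher on a gel than on glass in the edgeR test. Csf1r was lower on 20 kPa than on glass (-0.89, edgeR adjusted p = 0.005). Lyz2 was higher on both gels, with 60 and 64 counts in the glass libraries, 157 and 89 in those of 1 kPa and 111 and 109 in those of 20 kPa. Mrc1 was higher on 1 kPa, with 6 and 11 counts on glass and 26 and 29 on 1 kPa. The part of such cells in the level of Mmp12 was not tested.

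Outside the cluster, both gelatinases rose, by very different amounts. Mmp9, gelatinase B (ENSMUSG00000017737.3, chromosome 2, 164940780 to 164955850, plus strand), had 12 and 0 counts in the glass libraries, 374 and 280 in those of 1 kPa, and 225 and 238 in those of 20 kPa. The glass libraries differed from each other, and all 4 gel libraries lay far above both. The log2 fold change was 5.76 on 1 kPa (SE 0.3, edgeR adjusted p = 3e-16) and 5.16 on 20 kPa (SE 0.32, edgeR adjusted p = 2.5e-14), so Mmp9 lay near the cluster genes in its rise from glass. Its count ratios were 55.2 (31.4 to 107) and 36.4 (20.7 to 71). Without glass replicate 1, which held all 12 glass counts, it was at least 97.5-fold higher on 1 kPa and at least 64.6-fold higher on 20 kPa, over 3 counts in the remaining glass library.

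Mmp2, gelatinase A, is made by most fibroblasts without stimulation (ENSMUSG00000031740.9, chromosome 8, 92827291 to 92853420, plus strand). It stood at 427 and 403 CPM in the glass libraries, 1303 and 1278 in those of 1 kPa, and 1116 and 1039 in those of 20 kPa. The substrates did not overlap and the gels were close to each other. The log2 fold change was 1.64 on 1 kPa (SE 0.06, edgeR adjusted p = 9.8e-20) and 1.38 on 20 kPa (SE 0.06, edgeR adjusted p = 7.3e-18).

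Mmp14, the membrane-type proteinase that activates the Mmp2 proenzyme at the cell surface, moved least from glass to 1 kPa (ENSMUSG00000000957.12, chromosome 14, 54431612 to 54445364, plus strand). It stood at 604 and 578 CPM in the glass libraries, 741 and 716 in those of 1 kPa, and 845 and 833 in those of 20 kPa. The substrates did not overlap, and 20 kPa was highest. The log2 fold change was 0.3 on 1 kPa (SE 0.06, edgeR adjusted p = 6e-05) and 0.5 on 20 kPa (SE 0.06, edgeR adjusted p = 1.4e-08).

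Mmp11, stromelysin 3, is activated inside the cell by furin and is known from stroma around tumours (ENSMUSG00000000901.18, chromosome 10, 75923222 to 75936496, minus strand). It stood at 51.1 CPM in both glass libraries, 201.2 and 190.3 in those of 1 kPa, and 209 and 199 in those of 20 kPa. The gels overlapped each other and lay well above glass. The log2 fold change was 1.94 on 1 kPa (SE 0.06, edgeR adjusted p = 4.9e-21) and 2.0 on 20 kPa (SE 0.06, edgeR adjusted p = 2.3e-21).

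Mmp19, a widely expressed proteinase that cuts basement membrane proteins (ENSMUSG00000025355.8, chromosome 10, 128790910 to 128800824, plus strand), stood at 43.1 and 43.7 CPM in the glass libraries, 118 and 116 in those of 1 kPa, and 100.3 and 89.5 in those of 20 kPa. The substrates did not overlap. Both gels were higher than glass, by 1.43 (SE 0.07, edgeR adjusted p = 6.4e-17) and 1.13 (SE 0.07, edgeR adjusted p = 2.7e-14). Other genes overlap 28.3% of its exons, so part of its counts may belong to them.

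Mmp23, an unusual member anchored in the membrane until it is cleaved (ENSMUSG00000029061.3, chromosome 4, 155650655 to 155653384, minus strand), stood at 37.5 and 35.6 CPM in the glass libraries, 52.4 and 52.7 in those of 1 kPa, and 42.9 and 47.4 in those of 20 kPa. The substrates did not overlap, with 20 kPa between the others. Its rise was small on both gels, 0.52 (SE 0.08, edgeR adjusted p = 1.9e-06) and 0.3 (SE 0.08, edgeR adjusted p = 0.0022). The call on 20 kPa was lost without 20 kPa replicate 2 (0.23, edgeR adjusted p = 0.069).

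**Figure D2:**
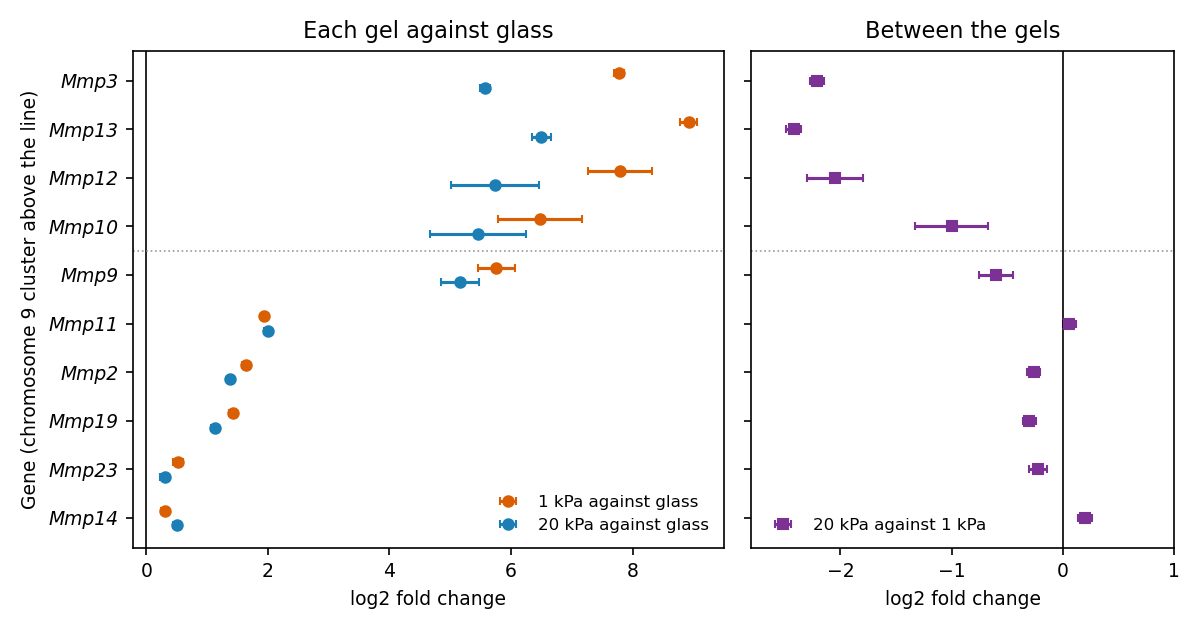
Fitted log2 fold changes of the 10 genes with SE bars, each gel against glass on the left and 20 kPa against 1 kPa on the right, with the cluster genes above the dotted line. The cluster genes and Mmp9 lie above 5 on both gels, and the other 5 genes lie between 0.3 and 2.0.

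By the fitted values, a rise of at least 5 on the log2 scale was seen for the 4 cluster genes and Mmp9 on 1 kPa. The same 5 genes rose that far on 20 kPa. Across all tested genes, 0.534% did so on 1 kPa and 0.398% on 20 kPa. The fitted rises of Mmp9, Mmp10 and Mmp12 rest on few glass counts. Over the alternatives run, the lowest log2 fold change on 20 kPa was 4.33 for Mmp9 and 4.46 for Mmp10. On 1 kPa the lowest for Mmp9 was 4.92.

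Between the gels, Mmp3, Mmp12 and Mmp13 of the cluster fell from 1 kPa to 20 kPa. Mmp10 fell less and less stably over the alternatives run, and by the fitted values the genes outside the cluster differed less still. Mmp14 was higher on 20 kPa, a call that was lost without any 1 of the 4 gel libraries (edgeR adjusted p = 0.063 to 0.22). In the edgeR test 8 of 10 were lower on 20 kPa, against 9.92% of all tested genes, 1 of 10 was higher, against 8.94%, and 1 did not pass (18.9% of all tested genes were called in either direction). The libraries of the gels did not overlap for these 9 genes, against 29.3% of all tested genes lower on 20 kPa and 30.7% higher. Mmp3 on 20 kPa stood at 21.6% of its 1 kPa level (log2 difference -2.21, SE 0.06, edgeR adjusted p = 2.5e-21). Mmp13 stood at 18.6% (-2.42, SE 0.07, edgeR adjusted p = 2.9e-21) and Mmp12 at 24.1% (-2.05, SE 0.25, edgeR adjusted p = 2.2e-07). These 3 genes kept their call in each of the 15 alternatives run. Mmp10 stood at 49.9% (-1.0, SE 0.33, edgeR adjusted p = 0.032). It kept its call in 11 of the 15 alternatives, with log2 differences from -1.47 to -0.65.

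The other genes differed less between the gels. Mmp9 on 20 kPa stood at 66.3% of its 1 kPa level (-0.6, SE 0.15, edgeR adjusted p = 0.0054). Mmp2 stood at 83.5% (-0.26, SE 0.06, edgeR adjusted p = 0.0015) and Mmp19 at 81.1% (-0.3, SE 0.06, edgeR adjusted p = 0.00086). Mmp9 thus kept a larger part of its 1 kPa level than any of the 4 cluster genes, a difference between genes that was not tested. Mmp23 stood at 85.9% (-0.22, SE 0.08, edgeR adjusted p = 0.042) and Mmp14 at 115% (0.2, SE 0.06, edgeR adjusted p = 0.0097). Mmp11 stood at 104% and did not pass (0.06, SE 0.06, edgeR adjusted p = 0.51). The number called fell from 9 to 3 without 20 kPa replicate 2, to 5 without 1 kPa replicate 1, and to 6 without either of the other gel libraries. The calls of Mmp9 and Mmp10 were also lost with DESeq2 (adjusted p = 0.84 and 0.16), and that of Mmp23 with library totals, without a filter, with DESeq2 and with a replicate block (adjusted p = 0.056 to 0.14).

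Together the cluster genes took a larger share of the metalloproteinase RNA on both gels than on glass. Their summed level was 29.7 ± 0.52 CPM on glass, 6658 ± 80 on 1 kPa and 1432 ± 7.1 on 20 kPa. For the other 6 genes it was 1138 ± 36, 2401 ± 47 and 2272 ± 74 CPM. The cluster thus held 2.55% of the summed CPM on glass, 73.5% on 1 kPa and 38.7% on 20 kPa. In summed RPKM, which allows genes of different length to be compared, all 10 genes came to 285 ± 8.3 on glass, 4286 ± 54 on 1 kPa and 1370 ± 23 on 20 kPa. Cluster genes held 5.75% ± 0.25 of that sum on glass, 85.2% ± 0.071 on 1 kPa and 57.5% ± 0.78 on 20 kPa. On 20 kPa it was therefore the larger part per length and the smaller part by CPM. Most of it was Mmp3, with 5.68%, 83.0% and 56.2% of the sum. Mmp2 held 43.2% on glass, 8.94% on 1 kPa and 23.4% on 20 kPa, and Mmp14 held 34.8%, 2.85% and 10.25%, although the level of each of these genes in RPKM was higher on the gels.

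**Figure D3:**
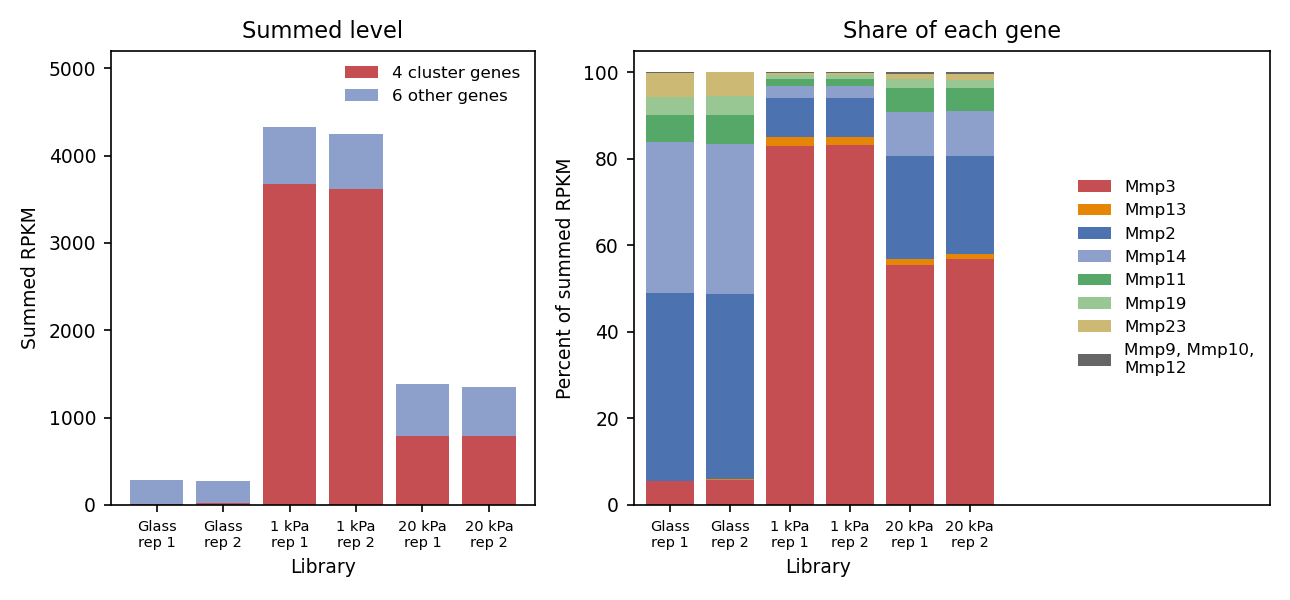
Summed RPKM of the 10 genes per library, split into cluster and other genes (left), and the percent of that sum held by each gene (right). The summed level is near 285 on glass, 4286 on 1 kPa and 1370 on 20 kPa, and Mmp3 holds 83.0% of it on 1 kPa.

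By mean RPKM the order on glass was Mmp2 (123), Mmp14 (99.2), Mmp11 (18.4), Mmp3 (16.2), Mmp23 (15.6) and Mmp19 (12.3). Mmp13 (0.189), Mmp9, Mmp10 and Mmp12 followed on glass, and the libraries of neighbours among these last 4 overlapped. On 1 kPa the order by mean RPKM was Mmp3 (3558), Mmp2 (383), Mmp14 (122), Mmp13 (89.8), Mmp11 (70.5), Mmp19 (33.1), Mmp23 (22.5), Mmp9 (4.79), Mmp10 (1.64) and Mmp12 (0.976). On 20 kPa it was Mmp3 (769), Mmp2 (320), Mmp14 (141), Mmp11 (73.6), Mmp19 (26.9), Mmp23 (19.3), Mmp13 (16.7), Mmp9 (3.18), Mmp10 (0.819) and Mmp12 (0.235). Neighbours in the order did not overlap on either gel. Mmp13 thus moved from 7th on glass to 4th on 1 kPa and back to 7th on 20 kPa.

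Genes on either side of the cluster had smaller log2 fold changes than its 4 genes. The 4 cluster genes span 237727 bases, from 7272514 to 7510240 on chromosome 9. Within 1 Mb of its outer ends lie 9 other protein-coding genes that encode no metalloproteinase, all of them tested. Of these, 3 were higher on 1 kPa than on glass and 0 lower, and 2 were higher on 20 kPa and 0 lower, with 45.0% and 41.8% of all tested genes called in either direction. Birc3, an inhibitor of apoptosis and part of NF-kB signalling, went from 23.9 ± 0.364 CPM on glass to 66.5 ± 3.17 on 1 kPa and 34.9 ± 1.46 on 20 kPa (log2 fold changes 1.48, SE 0.08, and 0.55, SE 0.08). Its relative Birc2 rose by 0.52 (SE 0.08) on 1 kPa and was not called on 20 kPa (0.19). Birc3 and Birc2 were the 2 of these 9 that were lower on 20 kPa than on 1 kPa, with log2 fold changes of -0.93 and -0.33. Yap1, the stiffness-responsive transcriptional coactivator, just passed on 1 kPa (0.14, SE 0.06, edgeR adjusted p = 0.05). Dync2h1, a motor protein of cilia, was higher on 20 kPa (0.26). Dcun1d5, Tmem123, Pdgfd, Cfap300 and Cep126 were not called against glass on either gel.

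**Figure D4:**
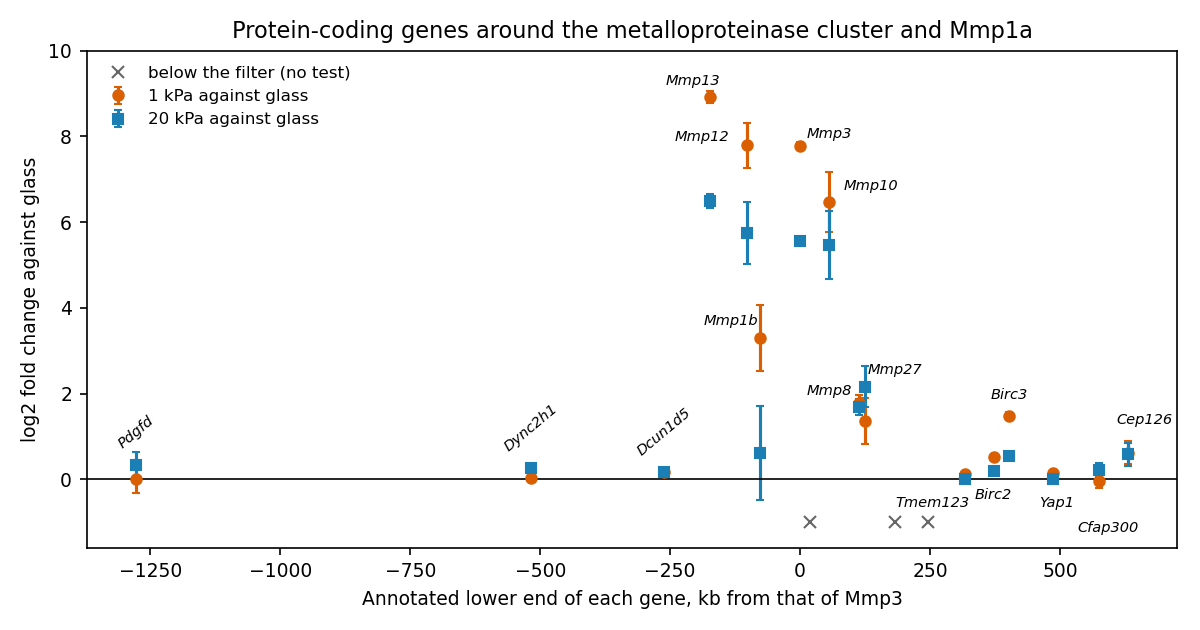
Log2 fold change against glass, with SE bars, of protein-coding genes around the cluster and of Mmp1a, by distance in kb from Mmp3. Crosses mark genes below the filter. The 4 cluster genes lie above 5 on both gels, Mmp1b, Mmp8 and Mmp27 lie lower, and the flanking genes lie below 1.5.

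Against glass, the tested metalloproteinases inside the same locus but outside the 4 genes had smaller log2 fold changes than these. Mmp8, the neutrophil collagenase, went from 2.57 ± 0.301 CPM on glass to 8.77 ± 1.31 on 1 kPa and 8.24 ± 1.24 on 20 kPa (1.78, SE 0.19, and 1.69, SE 0.19). Its levels on the gels did not pass the test between them (-0.1, edgeR adjusted p = 0.74). Mmp27 had 12 counts on glass, 31 on 1 kPa and 58 on 20 kPa in each group's 2 libraries together (1.36, SE 0.53, and 2.16, SE 0.48). It passed the filter only through its levels on the gels. Mmp1b, an interstitial collagenase gene, had 3 and 0 counts in the glass libraries, 14 and 17 in those of 1 kPa, and 3 and 2 in those of 20 kPa. On 1 kPa it was higher than on glass by 3.3 (SE 0.77, edgeR adjusted p = 0.00081) and on 20 kPa its log2 fold change against 1 kPa was -2.68 (SE 0.7, edgeR adjusted p = 0.0059). It passed the filter only through its level on 1 kPa, so it was tested because it was high there, and these p-values are no separate support. It shares 306 stretches of 30 bases with Mmp1a and overlaps Mmp12, so its counts are uncertain. Its own start carries TGAGTCA at bases 93 to 87 and a TATA match.

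Of 13 metalloproteinase genes outside the 10, 7 were tested. On 1 kPa 5 were higher, 1 was lower and 1 was not called, with a median of 1.1. Of all tested genes 23.0% were higher and 22.0% lower. On 20 kPa 3 were higher, 1 was lower and 3 were not called, with a median of 0.62. Among all tested genes these shares were 22.3% and 19.6%. Mmp1b and Mmp27, counted here, passed the filter only through gel libraries. Mmp16, a membrane-type enzyme, was the one that fell, from 20.7 ± 1.31 CPM on glass to 12.1 ± 0.613 on 1 kPa and 15.1 ± 2.09 on 20 kPa (-0.77, SE 0.12, and -0.45, SE 0.11). Mmp17, anchored to the membrane by a lipid, went from 3.71 ± 0.00962 to 7.92 ± 0.103 and 7.02 ± 0.615 CPM (1.1, SE 0.17, and 0.92, SE 0.17). Mmp28 was higher on 1 kPa (0.56, SE 0.18), and Mmp15 was not called in any comparison.

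The lists that follow can be read against all tested genes, of which 23.0% were higher and 22.0% lower on 1 kPa than on glass, and 22.3% higher and 19.6% lower on 20 kPa than on glass. The inhibitors did not move as a block. Of 7 tested, 4 were higher and 3 lower on 1 kPa than on glass, and 5 were higher and 1 lower on 20 kPa, with medians of 1.29 and 0.96. Timp3, the inhibitor that stays bound to matrix, fell from 1128 ± 90.5 CPM on glass to 271.5 ± 6.2 on 1 kPa and 579.5 ± 42.9 on 20 kPa (-2.06 and -0.96), lowest where Mmp3 was highest. Timp1, the inducible soluble inhibitor, went from 581 ± 29.6 to 1417 ± 14.8 and 1128 ± 32.3 CPM (1.29 and 0.96). A2m, a broad proteinase trap, rose by 3.82 on 1 kPa and by 3.9 on 20 kPa. Summed over Timp1 to Timp4, the level was 1215 ± 75.4 RPKM on glass, 1926 ± 20.7 on 1 kPa and 1740 ± 20.4 on 20 kPa. As a ratio of the 10 metalloproteinases to these inhibitors, both as summed RPKM, this gave 0.235 ± 0.0078 on glass, 2.23 ± 0.052 on 1 kPa and 0.787 ± 0.023 on 20 kPa. This ratio concerns RNA, and the labels describe no measurement of protein or enzyme activity. It rests largely on 1 gene on the gels, because Mmp3 held 83.0% of the metalloproteinase sum on 1 kPa and 56.2% on 20 kPa, against 5.68% on glass. Timp2 was lower on 1 kPa (1153 ± 18.7 CPM) than on glass (1642 ± 120) and was not called on 20 kPa (1548 ± 40.9).

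Genes that activate the proenzymes were split. Of 11 tested, 6 were higher and 2 lower on 1 kPa, and 6 were higher and 3 lower on 20 kPa, with medians of 0.49 and 0.24. Pcsk5, a proprotein convertase of the furin family, went from 52.2 ± 2.62 CPM on glass to 350.5 ± 11.8 on 1 kPa and 336.8 ± 14.8 on 20 kPa (2.75 and 2.69). Its relative Pcsk6 fell by 1.58 and by 1.51 on the log2 scale. Ctsk, the collagen-degrading cathepsin, rose by 0.86 on 1 kPa and by 1.04 on 20 kPa.

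Of 12 genes for surface docking and clearance, 4 were higher and 5 lower on 1 kPa, and 5 were higher and 4 lower on 20 kPa, with medians of -0.03 and -0.01. Of all tested genes 23.0% were higher and 22.0% lower on 1 kPa, and 22.3% and 19.6% on 20 kPa. Itgb3, the integrin subunit of the vitronectin receptor, rose by 1.15 and 0.98. Ddr1, a collagen receptor kinase, fell by 0.7 and by 0.73 on the log2 scale. Lrp1, which clears proteinases and their complexes from the medium, went from 2221 ± 76.8 CPM to 3720 ± 22.1 and 3053 ± 134 CPM (0.74 and 0.46).

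Among cytokines and growth factors known to induce metalloproteinases, 9 of 12 tested were higher on 1 kPa and 1 was lower, with a median of 1.37. On 20 kPa 7 were higher and 0 lower against glass, with a median of 0.97 (0.63 with 1 gene that had 0 counts on glass set at 3 counts there). Of the 12, 8 were lower on 20 kPa than on 1 kPa, against 9.92% of all tested genes. Lif went from 9.41 ± 1.08 CPM on glass to 145 ± 1.94 on 1 kPa and 32.2 ± 0.338 on 20 kPa (3.94 and 1.76, and -2.18 between the gels). Il6 went from 16.9 ± 2.62 to 137 ± 4.96 and 46.2 ± 3.2 CPM (3.03 and 1.46, and -1.57 between the gels). Ereg, a ligand of the EGF receptor, rose by 1.27 on 1 kPa and by 0.2 on 20 kPa. The level of these 3 was highest on 1 kPa, but they are named for the smallest p over the 3 substrates. The 1 gene that was lower on 1 kPa than on glass was Hbegf (-0.46). Whether any of these factors acted on the metalloproteinase genes was not tested.

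Of 20 transcription factors known to act on metalloproteinase genes, 12 were higher and 3 lower on 1 kPa, against 23.0% and 22.0% of all tested genes, with a median of 0.34. On 20 kPa 7 were higher and 6 lower against glass, with a median of 0.12, and 13 of 20 were lower than on 1 kPa, against 9.92% of all tested genes. Fosb, an AP-1 subunit, went from 3.74 ± 0.779 CPM on glass to 22.2 ± 1.71 on 1 kPa and 10.6 ± 0.881 on 20 kPa (2.58 and 1.52, and -1.07 between the gels). The Fos and Jun genes were split against glass. Fos (0.76 and 0.56) and Junb (0.76 and 0.43) were also higher on both gels. Jun (-0.19 and -0.45) and Jund (-0.57 and -0.93) were lower on both. Fosl1 was higher on 1 kPa (0.73) and lower on 20 kPa (-0.32), and Fosl2 was lower on 20 kPa only (-0.29). Relb, an NF-kB subunit, rose by 1.35 and 0.74. Cebpb, a factor of the acute inflammatory response, rose by 1.02 and 0.49. In the locus the printed promoters held no match to the kappaB consensus, which 3.9% of all windows held.

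The matrix proteins that these enzymes cut were mostly higher on the gels as well. Of 17 tested, 15 were higher and 2 lower on 1 kPa, and 13 were higher and 2 lower on 20 kPa, with medians of 0.58 and 0.5. Eln, elastin, the substrate after which the Mmp12 enzyme is named, went from 24.2 ± 0.65 CPM on glass to 170.1 ± 7.47 on 1 kPa and 471.7 ± 7.87 on 20 kPa (2.81 and 4.28). Dcn, a small proteoglycan cut by several of these enzymes, rose by 4.49 and 4.21. Acan, the cartilage proteoglycan, rose by 0.87 and 1.93. Eln and Acan were thus highest on 20 kPa, unlike the cluster genes.

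**Figure D5:**
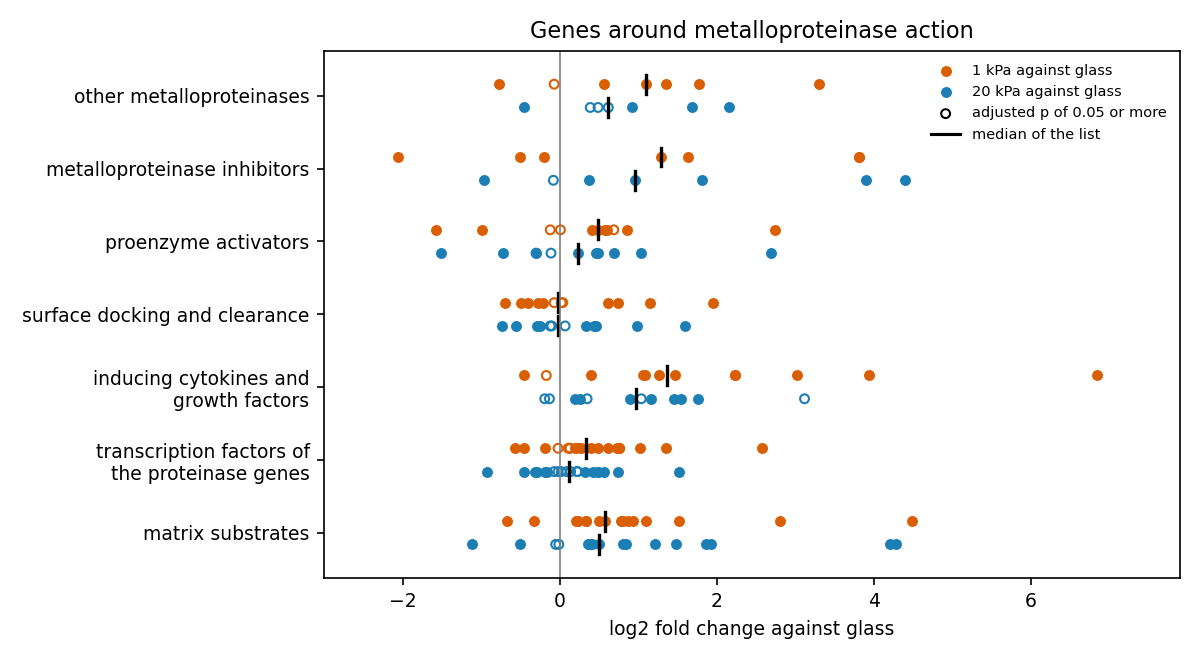
Log2 fold changes against glass of the tested genes of each list, one point per gene, filled where the edgeR adjusted p was below 0.05, with a bar at the median of the list. The medians on 1 kPa run from -0.03 for surface docking and clearance to 1.37 for inducing cytokines and growth factors.

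Likeness to a cluster gene was measured over 10943 other genes as the distance between the fitted log2 fold changes of the 2 gels against glass, which share the glass libraries. The nearest to Mmp3 were Saa3 (distance 0.582), Myh1 (0.936) and Lcn2 (0.955). The nearest to Mmp13 were Lcn2 (0.588), Fcgr2b (1.48) and Saa3 (1.87). Saa3, an acute-phase apolipoprotein, went from 12.6 ± 0.77 CPM on glass to 1865 ± 123 on 1 kPa and 658 ± 32.7 on 20 kPa. Between the gels its log2 fold change was -1.5, against -2.21 for Mmp3. Myh1, a muscle myosin, had only 0.0521 ± 0.00832 CPM on glass, so its fold change is uncertain. The same holds for Fcgr2b, with 0.110 ± 0.0904 CPM on glass. Its log2 fold change between the gels was -0.5, against -2.42 for Mmp13.

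Metalloproteinases are also made by other cells that ear tissue can hold. Neutrophil markers summed to 0 CPM in both glass libraries, 0.673 to 1.02 on 1 kPa and 0.146 to 0.388 on 20 kPa, with 6 of 8 at 0 in every library. This order, the same as that of the cluster genes, rested on S100a8, with 0 counts in both glass libraries, 20 and 12 on 1 kPa and 3 and 8 on 20 kPa. S100a8 was called higher on both gels, but it passed the filter only through its level on 1 kPa. Chondrocyte markers, a type in which Mmp13 is prominent, summed to 249 to 287 CPM on glass, 663 to 685 on 1 kPa and 1164 to 1216 on 20 kPa, with 7 of 8 tested markers higher on 1 kPa than on glass, 8 of 8 higher on 20 kPa than on glass and 7 of 8 higher on 20 kPa than on 1 kPa. Osteoblast and osteoclast markers summed to 4.7 to 5.13 CPM on glass, 22.3 to 22.7 on 1 kPa and 20.7 to 23.9 on 20 kPa. Most of that sum was Sp7, at 2.935 CPM on glass, 19.44 on 1 kPa and 19.65 on 20 kPa. Endothelial markers summed to 15.3 to 16 CPM on glass, 30.6 to 33.6 on 1 kPa and 27.4 to 27.8 on 20 kPa. Skeletal muscle markers summed to 15.8 to 17.8 CPM on glass, 35 to 35.4 on 1 kPa and 20.8 to 24 on 20 kPa, again highest on 1 kPa. Among them Myh3 rose by 5.33 on 1 kPa and Des by 2.01, and their log2 fold changes between the gels were -0.64 and -1.54. Keratinocyte markers summed to 17.2 to 21.7 CPM on glass, 25.8 to 27.9 on 1 kPa and 26.7 to 26.8 on 20 kPa. Of 4 tested, 1 was higher and 2 lower on either gel than on glass. Trp63 rose by 1.08 on 1 kPa and 1.03 on 20 kPa. Krt5 changed by -4.29 and -2.67, and Krt14 by -2.24 and -3.39. Schwann cell and melanocyte markers summed to 8.59 to 10.2 CPM on glass, 14.9 to 16.7 on 1 kPa and 22.9 to 23.3 on 20 kPa. The step from 1 kPa to 20 kPa rested on S100b (5.04 CPM on glass, 5.53 on 1 kPa, 15.09 on 20 kPa). Sox10 was highest on 1 kPa (0.642, 4.36 and 2.16 CPM) and was called lower on 20 kPa than on 1 kPa. The part of these other cells in the metalloproteinase levels was not tested.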

How the data were processed

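The authors deposited raw counts per gene, whole numbers with no normalisation, for 6 libraries. Per the submitters' processing notes the tools were featureCounts, STAR 2.7.10b, cutadapt and Trim Galore, with build mm10. The annotation is not given in the sources used here, nor are settings or strand use. Symbols, positions and exon lengths came from GENCODE M21 (GRCm38), which matched 52081 of 57010 identifiers (91.4%). Other processed data were not used here.

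Genes passing filterByExpr by group (edgeR 4.0.16, 16093 genes, CPM minimum 0.494) were scaled with TMM and fitted with glmQLFit in R 4.3.3, group as the only term, 3 residual degrees of freedom, common biological coefficient of variation 5%. The 3 contrasts were tested with glmQLFTest, and p-values were Benjamini-Hochberg adjusted over all 16093 genes. SE is the size of the log2 fold change over the root of F, and at few counts it can lie below the counting error. Count ratios carry exact conditional binomial intervals at 95%, which cover counting error only, as do levels of 3 counts. A permutation of 2 against 2 libraries cannot go below an exact two-sided p of 0.333, so none was run. The script was tested on simulated data. Same-numbered libraries did not deviate together (correlations -0.0347 to -0.0158), so no pairing was used.

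The members and all lists were chosen with earlier results of these data known. All 10 members, other tested metalloproteinases, flanking genes within 1 Mb, up to 3 genes of each list with the smallest p over the 3 substrates and the 3 genes most like Mmp3 and Mmp13 are named. Timp2 and the other Fos and Jun genes are named in addition. Genes most like Mmp3 and Mmp13 had at least 5 CPM in a group. Promoter windows came from RefSeq GRCm38.p6. Protein sequences were not analysed here. The alternatives used DESeq2 1.42.0, limma 3.58.1, other scalings and filters, a replicate block and leaving out each library.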

Additional observations from a re-analysis of the deposited data

How the results depend on the processing

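Of 450 reruns of the 10 genes' results (15 alternatives in each of 3 contrasts), 427 kept their direction and their side of the threshold, 23 lost the call and 0 reversed. Of the losses 22 were between the gels. Against glass, 10 genes kept their call on 1 kPa in every alternative run and 9 on 20 kPa, Mmp23 being the exception. The size of the rise of genes near 0 on glass was uncertain: on 1 kPa the log2 fold change ran from 4.92 to 11.36 for Mmp9, from 5.46 to 8.84 for Mmp10, from 7.08 to 10.1 for Mmp12 and from 8.54 to 9.32 for Mmp13.

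Between the gels, 3035 genes were called, against 2022 with DESeq2 and 1680 to 3824 when 1 library was left out, and 3 to 9 of the 10 members were called when 1 library was left out, the lowest without 20 kPa replicate 2. Left-out libraries gave 5569 to 6997 called genes for 1 kPa and 5118 to 6442 for 20 kPa against glass. With a replicate block, 7032, 6526 and 2862 genes were called in the 3 contrasts and 8 members between the gels. The log2 ratio of cluster to other summed CPM was higher by 6.73 on 1 kPa than on glass (6.56 per kilobase of exons, 7.78 without Mmp3), higher by 4.59 on 20 kPa (4.47 and 5.47), and differed by -2.14 between the gels (-2.09 and -2.31). Counts per kilobase and the sum without Mmp3 were chosen after seeing the data. The causes of these shifts were not tested. Depth limits Mmp10, Mmp12 and Mmp9, with at most 12 counts on glass.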
